A study of Homo sapiens with 12 samples.

Results

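The vacuolar ATPase (v-ATPase) genes that encode the cytosolic V1 sector were followed in human MDA-MB-231 cells after knockdown (KD) of SIRT1, of IGF2BP2 or of both. The members were taken by name, as the V1 subunit genes ATP6V1A, ATP6V1B2, ATP6V1C1, ATP6V1D, ATP6V1E1, ATP6V1F, ATP6V1G1 and ATP6V1H. They are 8 of the 60649 gene IDs in the table of normalised counts, and all 8 were among the 17576 genes with enough reads to be tested. MDA-MB-231 is an established mesenchymal-like cell line from a triple-negative breast cancer. There were 4 groups of 3 libraries from total RNA. Double KD cells carried short hairpin RNAs (shRNAs) against SIRT1 and IGF2BP2, SIRT1 KD cells one against SIRT1, IGF2BP2 KD cells one against IGF2BP2, and control cells a sham-targeting shRNA, although their own label reads untreated. All 4 groups were infected with lentivirus produced in HEK-293T cells and kept under puromycin, so the control cells share the virus and the selection. The sources used here give neither the number of hairpins per target nor their sequences. The design text counts 3 independent runs per condition, and whether a run was a separate infection is not given, so the p-values describe spread among these libraries.

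The v-ATPase is a rotary proton pump of lysosomes, endosomes and the Golgi. Its V1 sector hydrolyses ATP in a ring of alternating A and B subunits, a central stalk of D and F subunits turns with each cycle, and peripheral stalks of E and G subunits, bridged to the membrane by C and H, hold the ring still. V1 can detach from the membrane-embedded V0 sector, which carries the protons, and the assembled pump acidifies lysosomes and takes part in amino acid sensing by mTORC1. SIRT1 removes acetyl groups from proteins at the cost of NAD. IGF2BP2 binds RNA and stabilises many of its target transcripts. Earlier work has tied the ATP6V1A transcript to both.

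ATP6V1A was the member with the largest change, and its transcript has a short stretch of sequence in common with that of SIRT1. The windows below, read from GENCODE 29 transcripts on build GRCh38, are shown because of that stretch. Capitals mark the shared run of 10 bases. The upper window is chr3:113811686-113811715, plus strand, in exon 15 of 15 of ATP6V1A. The lower window is chr10:67912485-67912514, plus strand, in exon 8 of 9 of SIRT1.
ATP6V1A 3′ UTR: cgaacctatgCTCAGATATTcatcgtaagt
SIRT1 coding sequence: catgaagtgcCTCAGATATTaattaataga
The run was chosen with earlier results of these data known, so it supports nothing, and as the hairpin sequences are not given, whether it bears on them was not tested. Among 12942 genes with a 3′ UTR searched on the transcript strand, 43 held the same run there. The 7-letter words CTCAGAT and TCAGATA, which overlap in it, stood in 11.3% and 9.71% of those 3′ UTRs. One or both stood in 17.1%, and the 8 letters CTCAGATA in 2.40%. ATP6V1A was the 1 member of 8 with either word in its 3′ UTR. That 3′ UTR had 2629 bases, against a median of 994 over the genes searched. Among the other members ATP6V1C1 had 4304 and the rest 266 to 1299, so the members did not offer equal lengths to the search. ATP6V1B2 held CTCAGAT at 2 places in its coding sequence and ATP6V1C1 at 1.

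Sequence of the promoter was at hand for ATP6V1D, ATP6V1E1, ATP6V1F and ATP6V1G1, as 5 windows of RefSeq (GRCh38.p14) from 250 bases before to 50 bases after a start. They were searched on both strands for CACGTG, the core recognised by the lysosomal regulators TFEB and TFE3, and for the same word with a T before it. The shorter word stood in 7.26% and the longer in 3.71% of all 35116 promoter windows. ATP6V1G1 was the member that held both, in overlapping matches 59 to 52 bases before its start. The stretch around it, chr9:114587684-114587743 on the plus strand, is printed to show this word, with the matched run in capitals.
ATP6V1G1 promoter: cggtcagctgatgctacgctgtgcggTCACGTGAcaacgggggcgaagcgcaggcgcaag
A match is a description of the letters, and it is no evidence of binding.

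Reads assigned to genes came to 19522606 to 22509142 in 11 libraries and to 15243152 in double KD replicate 2. That library also stood furthest from the mean of the other libraries of its group. The SD of that difference over genes was 0.478 on the log2 scale, against 0.273 to 0.379 in the other 11. Mitochondrially encoded transcripts took 1.18% of the reads of double KD replicate 2, against 1.99% to 2.57% in the other 11. Counts of members are therefore also given without it. SIRT1 was at 380 to 436 normalised counts in double KD libraries and 496 to 547 in SIRT1 KD libraries, against 799 to 863 in control libraries. IGF2BP2 was at 715 to 992 in double KD libraries and 709 to 841 in IGF2BP2 KD libraries, against 3045 to 3127 in control libraries. In SIRT1 KD libraries it was at 3721 to 3791, above every control library, and was called higher (log2 difference 0.29, adjusted p = 0.0274 by limma). SIRT1 in IGF2BP2 KD libraries was at 691 to 763, below every control library, but was not called (log2 difference -0.20, adjusted p = 0.102 by limma). Both targets thus lay below every control library wherever they were targeted, and SIRT1 KD cells kept 63.2% of the control SIRT1 level. Of markers of the line, VIM, CD44, AXL, CAV1 and FOSL1 were each above 3044 normalised counts in every library. Of 5 genes listed as low in the line, ESR1 and PGR, the hormone receptor genes, did not pass 7.66 and CDH1 did not pass 24.1, but EPCAM was at 134 to 243 and ERBB3 at 170 to 330. The markers of packaging and immune cells did not pass 5.75.

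All 8 genes were well expressed in control cells, and their levels differed several fold once length was taken into account. Per kilobase of the union of a gene's exons, the rotor gene ATP6V1F and the stalk gene ATP6V1G1 stood at 1070 ± 120 and 1032 ± 14.4 normalised counts in control cells (SD, n = 3 here and below), which did not differ beyond their spread. ATP6V1A followed at 494 ± 10.1 and ATP6V1E1 at 482 ± 18.3, also within their spread. ATP6V1D was at 309 ± 0.868, ATP6V1C1 at 294 ± 13.8, ATP6V1B2 at 253 ± 10.4 and ATP6V1H at 178 ± 4.16. The order depends on the length used. Per kilobase of the longest transcript, ATP6V1D stood at 712, ATP6V1E1 at 1105 and ATP6V1H at 384, while ATP6V1A stood at 552 and ATP6V1B2 at 286.

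The tissue-restricted isoforms of the same subunits were low. ATP6V1E2 was at 20.9 normalised counts per kilobase of exon in control cells, ATP6V1C2 at 8.48, ATP6V1G2 at 4.01, ATP6V1B1 at 2.24 and ATP6V1G3 at 0.88. Each lay far below the ubiquitous form of its subunit in the same cells.

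**Figure D1:**
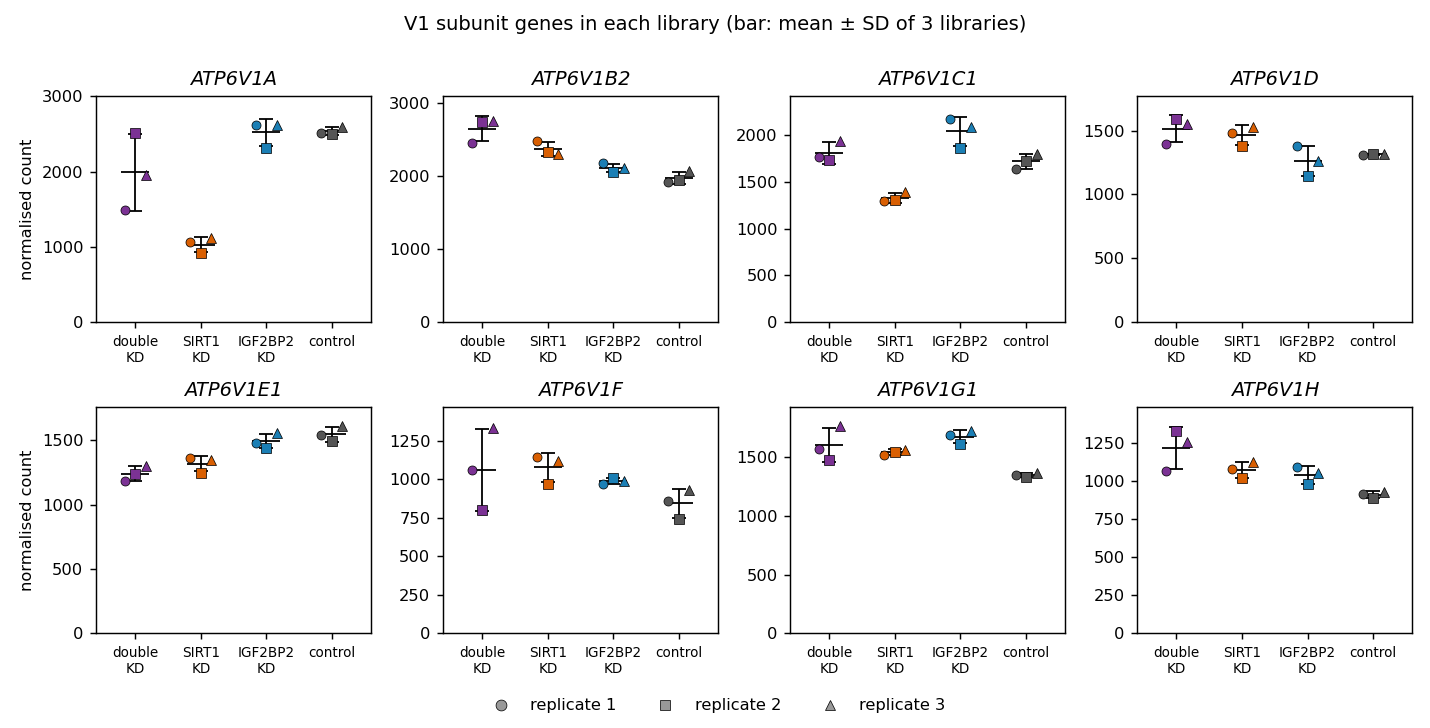
Normalised counts of the 8 V1 genes in each library (y axis, from 0), by group (x axis), with the replicate number as the marker shape and bars for the mean ± SD of 3 libraries. ATP6V1A lies between 916 and 1111 in SIRT1 KD libraries, against 2501 to 2594 in control libraries, and spreads from 1495 to 2513 in double KD libraries.

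Each gene was tested between groups with limma on log2(normalised count + 1), adjusted over all 17576 genes by the Benjamini-Hochberg method, and called changed at an adjusted p under 0.05. Differences below are log2, with 95% intervals from the same fit. In bulk RNA, fewer cells with a transcript and less of it per cell cannot be told apart. The subunit genes did not move as a block. In double KD cells 4 members rose against control (ATP6V1B2, ATP6V1D, ATP6V1G1 and ATP6V1H) and 2 fell (ATP6V1A and ATP6V1E1), where 16.7% of all genes tested rose and 17.5% fell, 34.2% in all. In SIRT1 KD cells 3 rose (ATP6V1B2, ATP6V1G1 and ATP6V1H) and 3 fell (ATP6V1A, ATP6V1C1 and ATP6V1E1), beside 12.9% and 15.7% of all genes, 28.6% in all. In IGF2BP2 KD cells 2 rose (ATP6V1C1 and ATP6V1G1) and 0 fell, beside 6.86% and 9.39%, 16.3% in all, so the share of members is near that of all genes. The median difference of the 8 members from control was 0.22 in double KD cells, 0.17 in SIRT1 KD cells and 0.15 in IGF2BP2 KD cells, while over all genes tested it was between -0.00 and 0.01 in the same groups. These comparisons share the control libraries.

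Without double KD replicate 2 more genes were called in all. Double KD cells then had 4 members higher and 2 lower than control, with ATP6V1F in place of ATP6V1D, where 19.6% of all genes were higher and 20.6% lower (40.2% in all). SIRT1 KD cells had 5 higher and 3 lower, where 18.9% of all genes were higher and 20.9% lower (39.8% in all). IGF2BP2 KD cells had 4 higher and 0 lower, where 13% were higher and 15.7% lower (28.7% in all). ATP6V1F and ATP6V1D joined the members that rose in SIRT1 KD cells, and ATP6V1F and ATP6V1H those that rose in IGF2BP2 KD cells. Some other single libraries moved a count of members by over 1.5 times. In double KD cells 3 members were called without double KD replicate 3, where 5566 of the 17576 genes tested were called. In SIRT1 KD cells 3 were called without control replicate 3, where 3936 of all genes were. In IGF2BP2 KD cells 1 was called without control replicates 1 or 2 or IGF2BP2 KD replicates 1 or 3. Between 1892 and 2000 of all genes were called for IGF2BP2 KD against control in those fits.

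Library by library, all 8 members were separated between SIRT1 KD and control libraries, 5 above and 3 below, where 25% and 26% of all genes tested were, 51% in all. In double KD libraries 4 members lay above every control library, 1 lay below and 3 overlapped, where 20.9% and 21.3% of all genes did so, 42.2% in all. In IGF2BP2 KD libraries 4 lay above and 4 overlapped, where 19.8% of all genes lay above and 21.5% below, 41.3% in all.

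**Figure D2:**
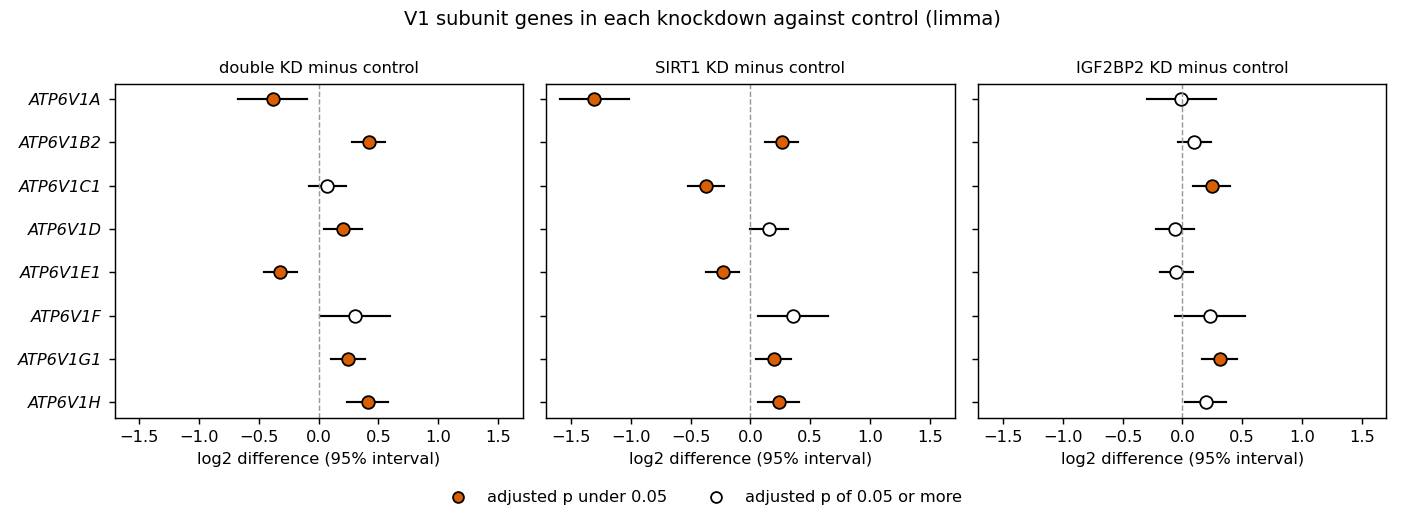
Log2 difference from control (x axis) for each V1 gene (rows) in double KD, SIRT1 KD and IGF2BP2 KD cells, with 95% intervals; filled points have an adjusted p under 0.05. ATP6V1A is furthest to the left in SIRT1 KD cells at -1.31, while ATP6V1B2 lies to the right of 0 at 0.26 in the same cells.

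ATP6V1A (ENSG00000114573.10, chromosome 3, 113747019 to 113812056, plus strand, GRCh38) encodes the catalytic subunit, which binds and hydrolyses ATP. It had 1495, 2513 and 1960 normalised counts in double KD replicates 1, 2 and 3. The SIRT1 KD libraries had 1058, 916 and 1111, the IGF2BP2 KD libraries 2624, 2314 and 2618, and the control libraries 2509, 2501 and 2594. All SIRT1 KD libraries were low and apart from every other library, IGF2BP2 KD and control libraries overlapped, and of the double KD libraries replicate 2 lay within the control range while the other 2 lay below it. ATP6V1A fell in SIRT1 KD cells by 1.31 on the log2 scale (-1.59 to -1.02, adjusted p = 3.24e-06), to 40.6% of control, and this call held in all 9 other alternatives and all 12 leave-one-out fits. Against IGF2BP2 KD cells the SIRT1 KD difference was -1.29 (adjusted p = 1.95e-06). In IGF2BP2 KD cells the difference from control was -0.01 (-0.30 to 0.28, adjusted p = 0.968).

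The double KD level of ATP6V1A lay between those of SIRT1 KD and control cells. It was higher than in SIRT1 KD cells by 0.92 (0.64 to 1.21, adjusted p = 0.000161), a call kept in every alternative. Against control it was -0.38 (-0.67 to -0.09, adjusted p = 0.0402) and against IGF2BP2 KD cells -0.37 (-0.66 to -0.08, adjusted p = 0.0492). The replicates decide the size of these differences. Without double KD replicate 2 they were -0.57 against control (adjusted p = 0.000192) and -0.55 against IGF2BP2 KD cells (adjusted p = 0.00027), and the difference from SIRT1 KD cells was 0.74 (adjusted p = 2.12e-05). Without double KD replicate 1 they were -0.19 (adjusted p = 0.151) and -0.18 (adjusted p = 0.177). The call against control was also lost without double KD replicate 3, any 1 control library or IGF2BP2 KD replicate 1, with an adjusted p of 0.0527 to 0.151 over the 6 such fits. The call against IGF2BP2 KD cells held in 2 of 12 leave-one-out fits, those without double KD replicate 2 and without SIRT1 KD replicate 2. With the deposited log2 ratios, with no filter and with only the 2 groups in the fit, neither call was made (adjusted p = 0.132, 0.199 and 0.0875 against control, and 0.153, 0.233 and 0.103 against IGF2BP2 KD). The call against IGF2BP2 KD was also lost with edgeR (adjusted p = 0.0519) and a pseudocount of 0.5 (adjusted p = 0.0505).

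ATP6V1B2 (ENSG00000147416.11, chromosome 8, 20197367 to 20226819, plus strand) encodes the ubiquitous B subunit, which alternates with A in the ring. It had 2448, 2745 and 2760 normalised counts in double KD libraries, 2474, 2334 and 2305 in SIRT1 KD libraries, 2174, 2061 and 2109 in IGF2BP2 KD libraries, and 1914, 1949 and 2070 in control libraries. Double KD and SIRT1 KD libraries were high and above every control library, and IGF2BP2 KD libraries overlapped control. ATP6V1B2 rose by 0.42 in double KD cells (0.28 to 0.56, adjusted p = 6.42e-05) and by 0.26 in SIRT1 KD cells (0.12 to 0.40, adjusted p = 0.00535). Its difference in IGF2BP2 KD cells was 0.10 (-0.04 to 0.24, adjusted p = 0.36). Double KD was above IGF2BP2 KD by 0.32 (adjusted p = 0.000935). Its difference from SIRT1 KD was 0.16 (0.02 to 0.30, adjusted p = 0.091), which passed the test without double KD replicate 1 (0.22, adjusted p = 0.0215). SIRT1 KD was above IGF2BP2 KD by 0.16 (adjusted p = 0.0559), which passed with DESeq2, edgeR, TMM factors, only the 2 groups, or any 1 double KD library left out (adjusted p 0.0119 to 0.0496).

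The A and B genes of the ATPase ring thus differed in direction under the SIRT1 hairpin. Taken within each library and set to 0 at the control mean, the log2 ratio of ATP6V1A to ATP6V1B2 was -1.07, -0.49 and -0.85 in double KD replicates 1, 2 and 3. It was -1.58, -1.71 and -1.41 in SIRT1 KD libraries and -0.09, -0.19 and -0.05 in IGF2BP2 KD libraries, against 0.03, 0.00 and -0.03 in control libraries. The SIRT1 KD ratios were the lowest and the double KD ratios lay between them and control, each double KD library below every IGF2BP2 KD library. A ratio within a library does not depend on how libraries were scaled.

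In the rotor, ATP6V1D (ENSG00000100554.12, chromosome 14, 67294371 to 67360265, minus strand) encodes the subunit that forms most of the central shaft. It had 1396, 1593 and 1554 normalised counts in double KD libraries, 1484, 1382 and 1531 in SIRT1 KD libraries, 1379, 1146 and 1264 in IGF2BP2 KD libraries, and 1310, 1314 and 1317 in control libraries. Double KD and SIRT1 KD libraries lay above the narrow control range, and IGF2BP2 KD libraries lay on both sides of it. ATP6V1D rose in double KD cells by 0.20 (0.04 to 0.36, adjusted p = 0.0483) against control and by 0.26 (0.10 to 0.42, adjusted p = 0.0132) against IGF2BP2 KD cells. The call against control was lost in 9 of 12 leave-one-out fits (adjusted p 0.0515 to 0.119), those without any 1 control or SIRT1 KD library, IGF2BP2 KD replicate 3 or double KD replicates 2 or 3. It was also lost with the deposited log2 ratios (adjusted p = 0.0792), with no filter (adjusted p = 0.118) and with only the 2 groups (adjusted p = 0.0899). The call against IGF2BP2 KD cells was lost without IGF2BP2 KD replicate 2 (adjusted p = 0.0738) and with only the 2 groups (adjusted p = 0.0815). In IGF2BP2 KD cells the difference from control was -0.06 (-0.22 to 0.10, adjusted p = 0.665). In SIRT1 KD cells it was 0.16 (-0.00 to 0.32, adjusted p = 0.142), and the test passed it without double KD replicate 2 (adjusted p = 0.0381) and with only the 2 groups (adjusted p = 0.00511). Exons of ATP6V1D overlap those of EIF2S1, on the opposite strand, by 269 bases, and the strand setting of the counting is not given. EIF2S1, a translation initiation factor gene with 3317 normalised counts on average, was higher in double KD cells than in control cells by 0.33 (adjusted p = 0.00163); its part in the ATP6V1D value was not tested.

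ATP6V1F (ENSG00000128524.5, chromosome 7, 128862826 to 128865844, plus strand) encodes the small subunit at the base of the shaft. It had 1057, 800 and 1331 normalised counts in double KD libraries, 1145, 971 and 1116 in SIRT1 KD libraries, 968, 1008 and 989 in IGF2BP2 KD libraries, and 861, 742 and 930 in control libraries. Every SIRT1 KD and IGF2BP2 KD library lay above every control library, while double KD replicate 2 lay within the control range and the other 2 double KD libraries lay above it. No comparison of ATP6V1F passed the limma test with all libraries: the difference from control was 0.31 in double KD cells (0.01 to 0.60, adjusted p = 0.1), 0.35 in SIRT1 KD cells (0.06 to 0.65, adjusted p = 0.0668) and 0.23 in IGF2BP2 KD cells (-0.06 to 0.52, adjusted p = 0.291). Without double KD replicate 2 all 3 passed, at 0.50 in double KD cells (adjusted p = 0.000151), 0.35 in SIRT1 KD cells (adjusted p = 0.00153) and 0.23 in IGF2BP2 KD cells (adjusted p = 0.0406). The SIRT1 KD difference also passed without double KD replicate 3 (adjusted p = 0.0155), with DESeq2 (adjusted p = 0.0349) and with only the 2 groups (adjusted p = 0.00152). The double KD difference also passed with DESeq2 (0.34, adjusted p = 0.0458), and the IGF2BP2 KD difference with only the 2 groups (adjusted p = 0.0136). Double KD minus IGF2BP2 KD was 0.07 (adjusted p = 0.729) and passed without double KD replicate 2 (0.26, adjusted p = 0.0306). Exons of KCP, a gene on the opposite strand with 79.5 normalised counts on average, overlap ATP6V1F by 187 bases. KCP was higher in double KD cells than in control cells by 0.60 (adjusted p = 0.0119), and its part in the ATP6V1F value was not tested.

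Of the stalk genes, ATP6V1C1 (ENSG00000155097.12, chromosome 8, 103021063 to 103073051, plus strand) encodes the C subunit that links peripheral stalks to the membrane sector and leaves the pump when V1 detaches. It had 1762, 1728 and 1939 normalised counts in double KD libraries, 1290, 1301 and 1392 in SIRT1 KD libraries, 2167, 1864 and 2087 in IGF2BP2 KD libraries, and 1637, 1719 and 1799 in control libraries. SIRT1 KD libraries were low and IGF2BP2 KD libraries high, each apart from control, and double KD libraries overlapped control. ATP6V1C1 fell by 0.37 in SIRT1 KD cells (-0.53 to -0.22, adjusted p = 0.000759) and rose by 0.24 in IGF2BP2 KD cells (0.09 to 0.40, adjusted p = 0.0277). SIRT1 KD lay below IGF2BP2 KD by 0.62 (adjusted p = 2.22e-06). In double KD cells the difference from control was 0.07 (-0.08 to 0.23, adjusted p = 0.48), and from SIRT1 KD cells it was 0.45 (0.29 to 0.60, adjusted p = 0.000224). The rise in IGF2BP2 KD cells was lost without control replicates 1 or 2 or IGF2BP2 KD replicates 1 or 3 (adjusted p 0.0816 to 0.134), with the deposited log2 ratios (adjusted p = 0.0791) and with no filter (adjusted p = 0.0554). Double KD differed from IGF2BP2 KD by -0.17 (adjusted p = 0.0839), which passed without IGF2BP2 KD replicate 2 (adjusted p = 0.0273) or double KD replicate 3 (adjusted p = 0.0388).

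ATP6V1E1 (ENSG00000131100.13, chromosome 22, 17592136 to 17628818, minus strand) encodes the ubiquitous E subunit of the peripheral stalks. It had 1185, 1241 and 1299 normalised counts in double KD libraries, 1360, 1250 and 1346 in SIRT1 KD libraries, 1483, 1445 and 1557 in IGF2BP2 KD libraries, and 1544, 1492 and 1610 in control libraries. Double KD and SIRT1 KD libraries lay below every control library, and IGF2BP2 KD libraries overlapped control. ATP6V1E1 fell by 0.32 in double KD cells (-0.46 to -0.18, adjusted p = 0.00103) and by 0.23 in SIRT1 KD cells (-0.37 to -0.09, adjusted p = 0.0132). In IGF2BP2 KD cells the difference was -0.05 (-0.19 to 0.09, adjusted p = 0.676). Double KD was also below IGF2BP2 KD, by 0.27 (-0.41 to -0.13, adjusted p = 0.00464). The call in SIRT1 KD cells was lost without control replicate 3 (adjusted p = 0.0721) or SIRT1 KD replicate 2 (adjusted p = 0.0741) and with no filter (adjusted p = 0.0567). Reads could be shared with 3 processed copies of the gene, which had at most 4.79 normalised counts.

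ATP6V1G1 (ENSG00000136888.8, chromosome 9, 114587746 to 114598373, plus strand) encodes the G subunit that pairs with E in each peripheral stalk. It had 1572, 1473 and 1762 normalised counts in double KD libraries, 1513, 1546 and 1560 in SIRT1 KD libraries, 1684, 1611 and 1722 in IGF2BP2 KD libraries, and 1347, 1328 and 1366 in control libraries. All 9 knockdown libraries lay above all 3 control libraries. Without double KD replicate 2, ATP6V1F, ATP6V1G1 and ATP6V1H were each called higher in every knockdown. With all libraries ATP6V1G1 was the 1 such member. It rose by 0.25 in double KD cells (0.10 to 0.39, adjusted p = 0.00957), 0.19 in SIRT1 KD cells (0.05 to 0.34, adjusted p = 0.0436) and 0.31 in IGF2BP2 KD cells (0.17 to 0.46, adjusted p = 0.00406). The rise in SIRT1 KD cells was lost in 8 of 12 leave-one-out fits (adjusted p 0.0555 to 0.123), those without any 1 control or SIRT1 KD library or IGF2BP2 KD replicates 1 or 3, and with the deposited log2 ratios (adjusted p = 0.0585) or no filter (adjusted p = 0.138). That in double KD cells was lost without double KD replicate 3 (0.18, adjusted p = 0.0534) and with only the 2 groups (adjusted p = 0.0565). Its 7 processed copies had at most 6.86 normalised counts.

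ATP6V1H (ENSG00000047249.18, chromosome 8, 53715557 to 53843558, minus strand) encodes the regulatory H subunit, which couples V1 to V0 and silences ATP hydrolysis in free V1. It had 1061, 1326 and 1255 normalised counts in double KD libraries, 1075, 1019 and 1120 in SIRT1 KD libraries, 1092, 975 and 1052 in IGF2BP2 KD libraries, and 915, 884 and 925 in control libraries. All 9 knockdown libraries were again above all 3 control libraries. ATP6V1H rose by 0.41 in double KD cells (0.24 to 0.58, adjusted p = 0.000638) and by 0.24 in SIRT1 KD cells (0.07 to 0.41, adjusted p = 0.0356). In IGF2BP2 KD cells the difference was 0.19 (0.02 to 0.36, adjusted p = 0.12), and it passed the test without double KD replicate 2 (adjusted p = 0.0171) and with only the 2 groups (adjusted p = 0.0152). The call in SIRT1 KD cells was lost without any 1 control library, SIRT1 KD replicates 1 or 3 or IGF2BP2 KD replicate 3 (adjusted p 0.0507 to 0.138), with the deposited log2 ratios (adjusted p = 0.0864) and with no filter (adjusted p = 0.0862).

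Set against the single knockdowns, the double KD differed from SIRT1 KD in 2 members, ATP6V1A and ATP6V1C1, both higher, where 11.9% of all genes tested were higher and 10.7% lower, 22.6% in all, a share near that of the members. It differed from IGF2BP2 KD in 5 members, with ATP6V1B2, ATP6V1D and ATP6V1H higher and ATP6V1A and ATP6V1E1 lower, where 16.4% of all genes were higher and 15.2% lower, 31.6% in all. ATP6V1H was above IGF2BP2 KD by 0.22 (adjusted p = 0.0482), a call kept without double KD replicate 1 and lost in the other 11 leave-one-out fits (adjusted p 0.0522 to 0.17), with the deposited log2 ratios, with no filter and with only the 2 groups (adjusted p 0.0816 to 0.166). The single knockdowns differed from each other in 4 members, with ATP6V1D higher and ATP6V1A, ATP6V1C1 and ATP6V1E1 lower in SIRT1 KD cells, where 19.3% of all genes were higher and 19.3% lower, 38.6% in all, again a share near that of the members. The ATP6V1D difference was 0.22 (adjusted p = 0.0314) and that of ATP6V1E1 -0.18 (adjusted p = 0.0389); they were lost in 4 and 7 of 12 leave-one-out fits, with the deposited log2 ratios and with no filter. Against SIRT1 KD 4 members were called without double KD replicate 1, with ATP6V1B2 and ATP6V1H added, where 4448 of all genes were called. Against IGF2BP2 KD 3 were called without any 1 control or IGF2BP2 KD library or SIRT1 KD replicates 1 or 3. Between the single knockdowns 2 were called without SIRT1 KD replicates 1 or 3 or IGF2BP2 KD replicate 3. Over the 12 leave-one-out fits 4407 to 6479 of all genes were called for double KD against IGF2BP2 KD. Between the single knockdowns 5579 to 8583 were.

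**Figure D3:**
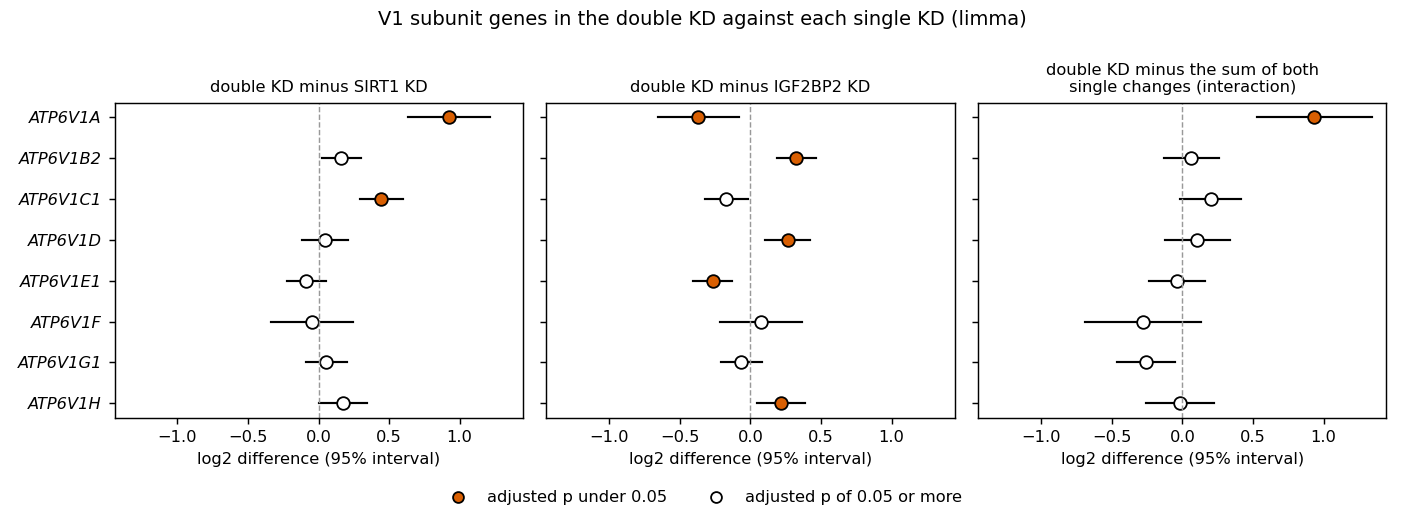
Log2 differences (x axis) of the V1 genes (rows) for double KD minus SIRT1 KD, double KD minus IGF2BP2 KD, and the interaction, with 95% intervals; filled points have an adjusted p under 0.05. ATP6V1A lies at 0.92 against SIRT1 KD and at 0.94 in the interaction, the 1 member filled there.

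Whether the double KD equals the sum of the single changes was tested as an interaction. This is the change that the IGF2BP2 hairpin gave on top of the SIRT1 hairpin (double KD minus SIRT1 KD) less the change it gave alone (IGF2BP2 KD minus control). It passed for 1 member, ATP6V1A, and for 2.86% of all genes tested (1.7% above 0 and 1.16% below). Its value was 0.94 (0.53 to 1.34, adjusted p = 0.0183), which places ATP6V1A in double KD cells above the sum of the single changes. The call was lost without control replicate 2 (adjusted p = 0.0576), control replicate 3 (adjusted p = 0.0517) or IGF2BP2 KD replicate 2 (adjusted p = 0.0543), with the deposited log2 ratios (adjusted p = 0.103) and with no filter (adjusted p = 0.114), and without double KD replicate 2 it was kept at 0.75, where 10.1% of all genes were called. For the other 7 members the interaction was between -0.28 and 0.20. The lowest adjusted p among them was 0.167, for ATP6V1G1 at -0.26 (-0.46 to -0.05). SIRT1 itself was lower in double KD cells (log2 difference -0.38, adjusted p = 0.00157) when set against SIRT1 KD cells, so the 2 groups do not differ by IGF2BP2 alone.

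The order of group means was set beside the tests between neighbouring levels. For ATP6V1A the order from the top was control, IGF2BP2 KD, double KD and SIRT1 KD, and the first step was not called. For ATP6V1B2, ATP6V1D, ATP6V1F and ATP6V1H no step between neighbours passed the test. ATP6V1C1 had 1 called step, from control down to SIRT1 KD at the bottom. ATP6V1E1 had 1, from IGF2BP2 KD down to SIRT1 KD, and ATP6V1G1 had 1, from SIRT1 KD down to control at the bottom. The ATP6V1A step from IGF2BP2 KD to double KD held in 2 of 12 leave-one-out fits. The steps of ATP6V1E1 and ATP6V1G1 were lost in 7 and 8 of 12. The ATP6V1A step from double KD to SIRT1 KD and the ATP6V1C1 step held in all 12.

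Each member was also set against the mean log2 level of the other 7 in its own library, with the control mean at 0. ATP6V1A stood at -0.88, -0.16 and -0.68 in double KD libraries, -1.37, -1.49 and -1.31 in SIRT1 KD libraries and -0.13, -0.20 and -0.11 in IGF2BP2 KD libraries, against -0.00, 0.02 and -0.02 in control libraries. In every SIRT1 KD library it was the member furthest from its control balance. ATP6V1E1 was at -0.45, -0.51 and -0.54 in double KD libraries, -0.14, -0.17 and -0.18 in SIRT1 KD libraries and -0.26, -0.17 and -0.16 in IGF2BP2 KD libraries, against 0.01, -0.01 and 0.00 in control libraries. Its double KD values were the lowest of its groups and close together. ATP6V1F was at 0.37, -0.23 and 0.50 in double KD libraries, so replicate 2 differed in sign from the other 2. Because ATP6V1A is among the other 7 for every other member, its fall in SIRT1 KD cells lifts their relative values there.

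**Figure D4:**
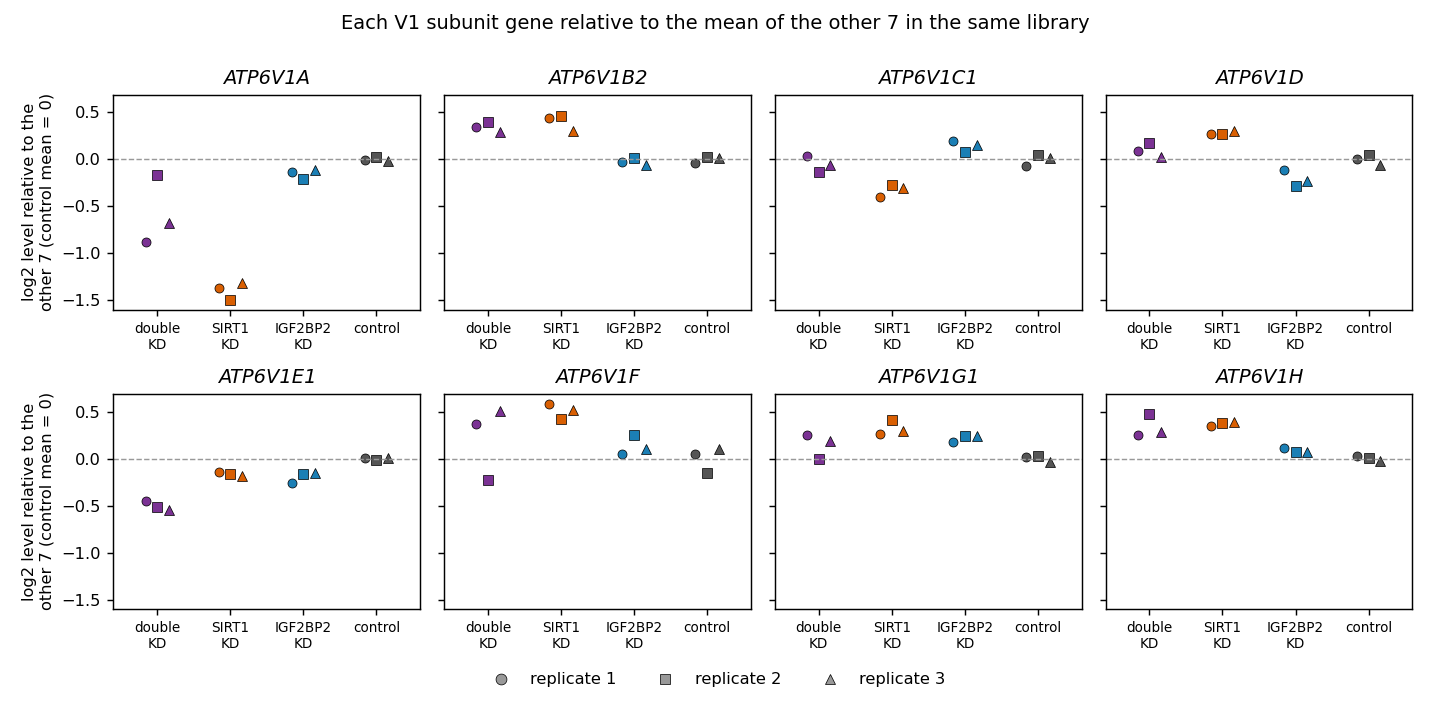
Log2 level of each V1 gene relative to the mean of the other 7 in the same library (y axis, control mean at 0) by group (x axis), with the replicate number as the marker shape. ATP6V1A lies at -1.49 to -1.31 in SIRT1 KD libraries, ATP6V1E1 at -0.54 to -0.45 in double KD libraries, and double KD replicate 2 stands apart for ATP6V1A and ATP6V1F.

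Of the other V1 isoform genes, 3 of 5 were tested. ATP6V1E2, an E subunit known from testis, had 156, 194 and 158 normalised counts in double KD libraries, 99.3, 107 and 115 in SIRT1 KD libraries, 122, 104 and 105 in IGF2BP2 KD libraries, and 90.0, 131 and 110 in control libraries. Every double KD library was above all others, and ATP6V1E2 rose there by 0.62 against control (adjusted p = 0.00237), while the main E gene, ATP6V1E1, fell. ATP6V1E2 was the 1 of the 3 called in double KD cells, where 34.2% of all genes were called. None of the 3 was called in SIRT1 KD or IGF2BP2 KD cells, beside 28.6% and 16.3% of all genes. With 3 genes tested these counts are a description. The V0 sector had 9 of 10 genes tested. Against control, 3 rose and 2 fell in double KD cells, 2 rose and 0 fell in SIRT1 KD cells, and 0 rose and 1 fell in IGF2BP2 KD cells. Of all genes tested, 16.7% rose and 17.5% fell in double KD cells, 12.9% and 15.7% in SIRT1 KD cells, and 6.86% and 9.39% in IGF2BP2 KD cells, and with so few V0 genes the counts are read as a description. The median V0 difference was -0.03 in double KD cells, 0.07 in SIRT1 KD cells and -0.20 in IGF2BP2 KD cells. Leaving out double KD replicate 2 gave 3 higher and 3 lower in double KD cells, 4 higher and 1 lower in SIRT1 KD cells, and 1 higher and 5 lower in IGF2BP2 KD cells, beside 40.2%, 39.8% and 28.7% of all genes called in those groups. The a1 subunit gene ATP6V0A1, which helps to anchor V1 at the membrane, had 1748, 1676 and 1902 normalised counts in double KD libraries, 2688, 2781 and 2660 in SIRT1 KD libraries, 1036, 1055 and 1063 in IGF2BP2 KD libraries, and 1109, 1155 and 1220 in control libraries. It rose by 0.61 in double KD cells (adjusted p = 9.37e-07) and by 1.22 in SIRT1 KD cells (adjusted p = 4.14e-10), in the direction opposite to ATP6V1A in both.

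Among 6 accessory and assembly genes, 2 rose in double KD cells (VMA21 by 0.30, adjusted p = 0.00881, and TMEM199 by 0.37, adjusted p = 0.0317), none was called in SIRT1 KD cells, and 1 rose in IGF2BP2 KD cells, where 34.2%, 28.6% and 16.3% of all genes were called. That was ATP6AP1, a glycoprotein of the pump, by 0.37 (adjusted p = 0.0034). With double KD replicate 2 left out there were 2 higher and 1 lower in double KD cells, 0 higher and 1 lower in SIRT1 KD cells, and 2 higher and 1 lower in IGF2BP2 KD cells. In that fit 40.2%, 39.8% and 28.7% of all genes were called in those groups. Regulators of V1 and V0 joining, the RAVE or rabconnectin complex with TLDc-domain proteins, had 8 of 9 genes tested. Of these 5 rose and 1 fell in double KD cells, 3 rose and 0 fell in SIRT1 KD cells, and 2 rose and 0 fell in IGF2BP2 KD cells, beside 16.7% and 17.5%, 12.9% and 15.7%, and 6.86% and 9.39% of all genes. Their median difference was 0.35 in double KD cells, 0.13 in SIRT1 KD cells and 0.05 in IGF2BP2 KD cells. The counts without double KD replicate 2 were 6 higher and 0 lower in double KD cells, 3 higher and 1 lower in SIRT1 KD cells, and 2 higher and 1 lower in IGF2BP2 KD cells, where 40.2%, 39.8% and 28.7% of all genes were called. DMXL1, a rabconnectin that promotes assembly, had 1147, 992 and 1137 normalised counts in double KD libraries, 875, 839 and 925 in SIRT1 KD libraries, 1174, 994 and 1095 in IGF2BP2 KD libraries, and 694, 765 and 763 in control libraries. It lay above control in all 9 knockdown libraries and rose by 0.56 in double KD cells (adjusted p = 3.25e-05), 0.25 in SIRT1 KD cells (adjusted p = 0.029) and 0.55 in IGF2BP2 KD cells (adjusted p = 0.00012).

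The transcription factors of the MiT/TFE family, which drive many lysosomal genes, had 3 of 4 genes tested. TFEB had 305, 421 and 358 normalised counts in double KD libraries, 253, 237 and 282 in SIRT1 KD libraries, 389, 439 and 441 in IGF2BP2 KD libraries, and 368, 327 and 343 in control libraries. SIRT1 KD libraries were below all others, and TFEB fell there by 0.43 (adjusted p = 0.00679). It was the 1 family member called against control. Of all genes tested, 28.6% were called in SIRT1 KD cells, 16.3% in IGF2BP2 KD cells and 34.2% in double KD cells. In the fit that left out double KD replicate 2, MITF and TFEB were lower in SIRT1 KD cells and TFEB was higher and TFE3 lower in IGF2BP2 KD cells. None of the family was called in double KD cells. In that fit 39.8%, 28.7% and 40.2% of all genes were called in those groups. The Ragulator and Rag genes, which dock mTORC1 at the lysosome and contact V1 there, had all 9 tested, with 2 higher and 1 lower in double KD cells, 1 higher and 2 lower in SIRT1 KD cells and 0 called in IGF2BP2 KD cells. Those 3 of 9 in double KD and in SIRT1 KD cells are near the 34.2% and 28.6% of all genes called there, and in IGF2BP2 KD cells 16.3% of all genes were called. The median difference of the 9 genes was 0.09 in double KD cells, 0.00 in SIRT1 KD cells and 0.04 in IGF2BP2 KD cells. Without double KD replicate 2 there were 3 higher and 3 lower in double KD cells, 1 higher and 3 lower in SIRT1 KD cells, and 1 higher and 0 lower in IGF2BP2 KD cells, where 40.2%, 39.8% and 28.7% of all genes were called. LAMTOR1, the Ragulator subunit that anchors the complex, had 898, 1053 and 888 normalised counts in double KD libraries, 866, 747 and 761 in SIRT1 KD libraries, 1557, 1649 and 1697 in IGF2BP2 KD libraries, and 1450, 1431 and 1548 in control libraries. It was low in all 6 libraries with the SIRT1 hairpin, and its log2 difference from control was -0.64 in double KD cells (adjusted p = 5.33e-06) and -0.90 in SIRT1 KD cells (adjusted p = 1.41e-07). RRAGD, a Rag GTPase, rose in the same groups, by 0.56 (adjusted p = 6.81e-06) in double KD cells and 0.85 (adjusted p = 6.82e-08) in SIRT1 KD cells.

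Genes whose values followed ATP6V1A most closely were found among 10465 protein-coding genes with a mean CPM (library-scaled count) of at least 5, by the root mean square difference of log2 values over the 12 libraries after each gene was centred on its control mean. They were NDUFAB1 (0.15), NDUFA1 (0.16), PRKAR2B (0.17), HTR1D (0.18) and TINAGL1 (0.19). Their log2 differences from control lay between -0.62 and -0.34 in double KD cells, in SIRT1 KD cells between -1.39 and -1.01, and in IGF2BP2 KD cells between -0.03 and 0.16. PRKAR2B and TINAGL1, 2 of these 5, held 1 of the 7-letter words in their 3′ UTR, where 17.1% of all genes searched held either word. Both the words and these 5 genes were picked with these data, so the matches support nothing. For ATP6V1B2, the member with the next largest difference from control, the closest were RAD54L2 (0.04), ARHGDIA (0.04), PPM1G (0.04), GSPT1 (0.05) and SAMHD1 (0.05). In double KD cells these lay between 0.38 and 0.49 above control, in SIRT1 KD cells between 0.23 and 0.29, and in IGF2BP2 KD cells between 0.04 and 0.11. These distances are a description over shared libraries.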

How the data were processed

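RNA sequencing libraries of 12 samples, 3 per group, were used. The main table holds a signal the authors deposited, namely each library's gene counts over its size factor (normalised counts), for 60649 Ensembl gene IDs, of which 60463 matched a symbol and 58337 GENCODE 29. Each column was divided by its smallest value above 0. After that, 100% of values above 0 lay within 0.001 of a whole number, which was taken as the reads. The columns were named by short codes, and the code left once the others were read was taken as SIRT1 KD. A deposited table of log2 ratios to control, with full names, matched each of the 12 libraries best to its own column over 10359 genes. Another 12 columns without names were not used. CASAVA, STAR, DESeq2 and GRCh38.p13 appear in the submitters' processing notes, while neither annotation nor strand setting is given in the sources used here.

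All 12 libraries entered 1 fit of log2(normalised count + 1) with limma 3.58.1 (R 4.3.3), which had a mean per group and moderated variances (trend, robust). Low genes were removed by filterByExpr of edgeR 4.0.16 (minimum count 10 on recovered reads), and the fit was tested on simulated data. The log2(value + 1) scale understates changes of low genes. Alternatives were pseudocounts 0.5 and 8, no filter, TMM factors, edgeR's quasi-likelihood test, DESeq2 1.42.0, fits of 2 groups, a replicate block, the ratio table, and leaving out each library. The members, gene lists, words and comparisons were chosen with earlier results of these data known. Named genes are all members, the targets, at most 4 called genes per list and comparison by adjusted p, and 5 genes nearest in profile.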

Additional observations from a re-analysis of the deposited data

Results flagged for a closer look

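The effect of the SIRT1 hairpin on ATP6V1A differed with and without the IGF2BP2 hairpin, by the interaction test across all genes (0.94 on the log2 scale, adjusted p = 0.0183 by limma). That call was lost in 3 of 12 leave-one-out fits, with the deposited log2 ratios and with no filter. Without double KD replicate 2 it was kept at 0.75. ATP6V1A was at 1989 ± 510 normalised counts in double KD cells and 2519 ± 178 in IGF2BP2 KD cells, and at 1028 ± 101 in SIRT1 KD cells and 2535 ± 51.7 in control cells (SD, n = 3). The effect on the V0 gene ATP6V0A1 differed likewise, in the other direction (-0.47, adjusted p = 0.0133 by limma). ATP6V0A1 was at 1775 ± 116 normalised counts in double KD cells and 1051 ± 14.1 in IGF2BP2 KD cells, and at 2710 ± 63.4 in SIRT1 KD cells and 1161 ± 55.8 in control cells. For both genes the change under the SIRT1 hairpin was smaller where the IGF2BP2 hairpin was present. SIRT1 transcript was at 404 ± 28.7 normalised counts in double KD cells, against 527 ± 27.5 in SIRT1 KD cells. No other member and no other V0 gene passed this test.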

How the results depend on the processing

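Of 1168 values of single members under the alternatives, 1026 kept their direction and their side of the threshold, 11 that were never called changed sign, 105 were no longer called, 26 were newly called and 0 changed sign as a call. The counts of members called moved with the setting. With no filter they were 3 for SIRT1 KD against control (6 in the report), 1 for IGF2BP2 KD against control (2), 3 for double KD against IGF2BP2 KD (5), 2 for SIRT1 KD against IGF2BP2 KD (4) and 0 for the interaction (1). With only the 2 groups in the fit they were 4 for IGF2BP2 KD and 3 for double KD against control (6), and 2 for double KD against IGF2BP2 KD; the interaction needs all 4 groups and has no such value. The deposited log2 ratios gave 1 for IGF2BP2 KD against control, 3 for double KD against IGF2BP2 KD, 2 for SIRT1 KD against IGF2BP2 KD and 0 for the interaction. The fit with no filter tested 44287 genes, against 17576 in the report. It called 4205 of them for SIRT1 KD against control, 2228 for IGF2BP2 KD against control and 4681 for double KD against IGF2BP2 KD. The ratios covered 15209 genes, of which 2069 were called for IGF2BP2 KD against control. With 2 groups, genes called against control were 7794 for SIRT1 KD (5030), 5116 for IGF2BP2 KD (2857) and 4426 for double KD (6018). Double KD gave 2214 against SIRT1 KD (3980) and 3641 against IGF2BP2 KD (5550). For the interaction 926 genes were called with DESeq2 and 109 with the ratios (503). The causes were not tested. In limma, leaving out a library of a group outside a comparison keeps its log2 differences and changes the estimate of spread. ATP6V1F in SIRT1 KD cells against control was at 0.3538 with all libraries and without double KD replicate 2. Its standard error was 0.1372 with all libraries and 0.0837 without that one. Leaving out 1 library gave 4773 to 7068 genes and 3 to 6 members for double KD against control, 3915 to 7001 and 3 to 8 for SIRT1 KD against control, and 1862 to 5037 and 1 to 4 for IGF2BP2 KD against control. It gave 2826 to 5147 genes and 2 to 4 members for double KD against SIRT1 KD, 4407 to 6479 and 3 to 5 for double KD against IGF2BP2 KD, 5579 to 8583 and 2 to 5 for SIRT1 KD against IGF2BP2 KD, and 113 to 1771 and 0 to 1 for the interaction. The gene counts for IGF2BP2 KD against control that moved over 1.5 times were those without control replicates 2 or 3 or double KD replicate 2. For the interaction they were those without double KD replicates 1 or 2, any 1 control or SIRT1 KD library, or IGF2BP2 KD replicates 2 or 3. Replicate numbers do not pair the libraries: correlations of same-numbered deviations ran from -0.193 to 0.0996 over 18 pairs, and 5 of 12 libraries matched their own number best. With the replicate as a block, 3 members were called for double KD against IGF2BP2 KD, and other counts stayed within 1.5 times. The block fit did not call ATP6V1A (adjusted p = 0.0537) or ATP6V1D (adjusted p = 0.0531) and called ATP6V1F (adjusted p = 0.0341) in double KD cells against control, called ATP6V1F in SIRT1 KD cells (adjusted p = 0.0194), and did not call ATP6V1A (adjusted p = 0.0637) or ATP6V1H (adjusted p = 0.0534) in double KD against IGF2BP2 KD. Depth allowed every member to be tested, and changes of low genes are the ones it limits.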
